A study of Homo sapiens with 12 samples.

Results

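The interaction of 2 losses is the part of their joint effect that the single effects do not add up to. Here it was taken for the loss of the 2 forms of β-catenin in HepG2 cells, a long-established line derived from a human liver tumour, as the mean of sißCat-both minus that of sißCat-WT minus that of sißCat-mut plus that of siCtrl. All 12 of the 12 arrays of the series entered it, and all 14884 genes that could be named were tested. In HepG2 1 allele of the β-catenin gene lacks exon 3, so a truncated protein is made beside the full-length one, and every group carries this deletion. The 4 groups, each of 3 arrays of cells at 120 h, differed in the small interfering RNA they had received: siCtrl is a control, sißCat-WT targets the full-length form, sißCat-mut the truncated form and sißCat-both the 2 together. The last is named as a reagent of its own, and whether it holds a single sequence, and at what dose, is not stated in the labels. The samples are described as triplicates with no word on separate cultures, so all p-values rest on a spread that could be purely technical.

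β-catenin links cadherins to the cytoskeleton at cell junctions, and it carries the Wnt signal into the nucleus, where it binds TCF/LEF factors and switches on their target genes. Exon 3 encodes the residues that are phosphorylated to mark the protein for degradation, so a form without them escapes that control. In the liver Wnt activity is known for setting which hepatocytes act as perivenous and which as periportal cells, and activating β-catenin mutations are known from liver tumours.

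The values were log2 intensities, and a level is always on that scale. The interaction is a log2 difference: at 0 the joint change equals the sum of the 2 single changes (a product of the folds), above 0 the sißCat-both arrays read higher than the sum, and below 0 they read lower. It is also the effect of losing the full-length form on top of the truncated one (sißCat-both minus sißCat-mut) minus the effect of losing it alone (sißCat-WT minus siCtrl), and the same holds with the forms exchanged. A gene was called above or below the sum at an adjusted p under 0.05 in limma, with n = 3 arrays per group and the standard error (SE) of the fit after ±. The median SE of an interaction was 0.14, against 0.10 for a difference of 2 groups. Levels under 5.34, the 40th percentile of the gene means, lie near the floor of the array, where differences are compressed.

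The β-catenin gene itself was not analysed here, so whether sißCat-both silenced each form as far as the single RNAs did was not tested. Any such difference enters the interactions and cannot be told apart from a dependence between the forms. Of the hepatocyte markers, 6 of 8 were measured (ALB, TF, TTR, APOA1, APOB and FGB), with gene means of 9.70 to 13.31. Across genes, r between replicates was 0.994 to 0.997. The first sißCat-mut and the first sißCat-both arrays read apart from their replicates on some Wnt targets (LGR5 stood at 8.17 in the first sißCat-mut array and at 6.57 and 6.02 in the others), and without both arrays 1043 genes were above the sum and 1296 below. The sißCat-both arrays had the lowest weights when array quality was estimated (0.635 to 0.707, up to 1.84 in the rest).

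Of all genes, 2439 (16.4%) departed from the sum. The sißCat-both arrays read above it in 1131 genes (7.60%) and below it in 1308 (8.79%), and 164 and 194 of these departed by at least 1 on the log2 scale. Lists with a large share above the sum held carboxylesterases and other drug-handling enzymes, periportal amino acid metabolism, coagulation factors and other plasma proteins, metallothioneins, fatty acid oxidation and p53 targets, and the glutathione transferases GSTA2 and GSTA1 led all genes. Lists with a large share below it held the output genes of ERK signalling, targets of YAP, mitosis, lysosome, actin and progenitor genes. Wnt target genes as a list had a median close to the sum. Counts of list members given below are to be read beside the shares of all genes, 7.60% above and 8.79% below. Among genes called above the sum, all 3 sißCat-both arrays exceeded the other 9 in 646 of 1131 (57.1%, against 8.06% of all genes), and among those below it they were lowest in 678 of 1308 (51.8%, against 8.04%). The sißCat-both level is itself part of the call, so the selection alone raises these shares over those of all genes. In the rest of the called genes at least 1 sißCat-both array lay within the range of the other 9 or beyond it on the other side, so a gene above the sum need not be raised by sißCat-both.

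**Figure D1:**
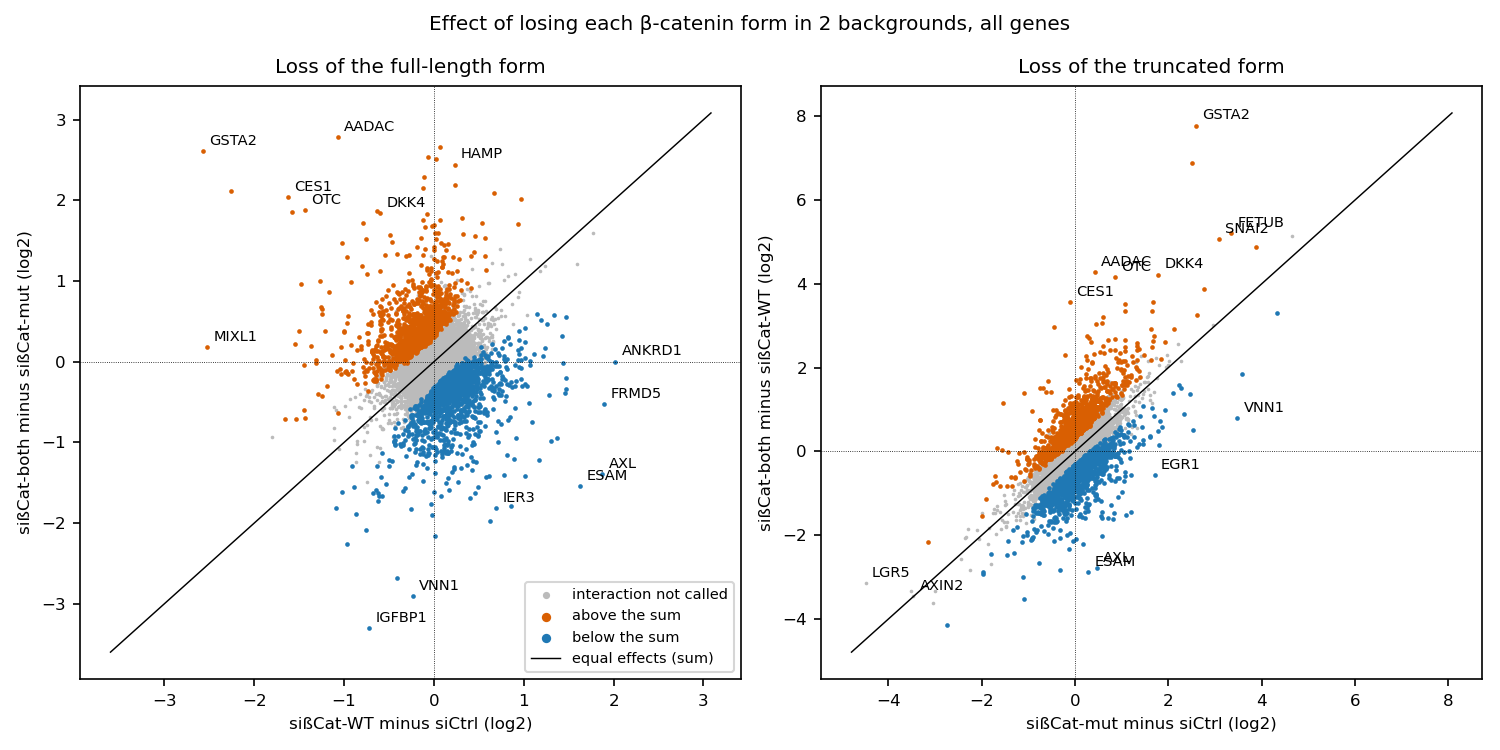
Effect of losing each form in 2 backgrounds, 1 point per gene (14884 genes). The left panel sets sißCat-both minus sißCat-mut (vertical, log2) against sißCat-WT minus siCtrl (horizontal, log2), the right panel sißCat-both minus sißCat-WT against sißCat-mut minus siCtrl, and the line marks equal effects; orange and blue genes were called above (1131) and below (1308) the sum. On the left the cloud has no slope (r = 0.0434) and GSTA2, AADAC and CES1 lie in the upper left corner, AXL and ESAM in the lower right; on the right most genes follow the line (r = 0.65).

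The interaction is 1 value per gene and the same for both forms, but the effects it compares differed in size: their SD across genes was 0.23 alone and 0.31 in the joint loss for the full-length form, and 0.36 and 0.50 for the truncated form. For the full-length form, 1513 genes were called when it was lost alone (5.20% higher and 4.97% lower) and 3297 when it was lost on top of the truncated form (10.6% higher and 11.6% lower). These contrasts share no array. Both called 689 genes, which were 45.5% of the first set and 20.9% of the second, and of them 387 (56.2%) went the same way and 302 went opposite ways (2.03% of all genes). Of the 302, 134 fell after the single loss and rose after the joint one, and 168 rose and then fell. Across genes the 2 effects of full-length loss correlated at r = 0.0434 (Spearman's rho 0.0529), a description over genes that are not independent.

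For the truncated form, 3810 genes were called when it was lost alone (12% higher and 13.6% lower) and 5383 when it was lost on top of the full-length form (16.1% higher and 20.1% lower), again with no shared array. Both called 2696 genes (70.8% of the first set and 50.1% of the second). Of these 2488 (92.3%) went the same way and 208 opposite ways (1.40% of all genes), with 73 that fell and then rose and 135 that rose and then fell. Across genes r was 0.65 and rho 0.507, over effects larger than those of full-length loss. Every one of the 302 and of the 208 genes was also called in the interaction. The interaction is the difference between the paired contrasts in the same fit, so called effects of opposite sign add up in it. This overlap is therefore nearly fixed in advance and is no separate evidence. Against siCtrl, sißCat-both raised 2309 genes (15.5%) and lowered 2691 (18.1%).

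The glutathione transferases GSTA2 and GSTA1, detoxifying enzymes of the hepatocyte, stood farthest above the sum. GSTA2 read 7.48, 7.58 and 7.47 in siCtrl, 5.69, 4.42 and 4.69 after sißCat-WT, 10.27, 10.14 and 9.89 after sißCat-mut and 12.68, 12.67 and 12.79 after sißCat-both. The groups did not overlap and sißCat-both was highest, while sißCat-WT was lowest and in part near the floor. The single changes of -2.57 and 2.59 added up to 0.02, the joint change was 5.21, and the interaction was 5.19 ± 0.32 (limma adjusted p = 7.18e-07). GSTA1 showed the same order, with 8.18, 8.33 and 8.07 in siCtrl, 6.28, 5.83 and 5.69 after sißCat-WT, 10.96, 10.79 and 10.35 after sißCat-mut and 12.94, 12.60 and 12.91 after sißCat-both. Its single changes summed to 0.25 against a joint change of 4.62, an interaction of 4.38 ± 0.24 (limma adjusted p = 2.53e-07). Losing the full-length form thus went with a fall of both genes when the truncated form was left and with a rise (2.61 and 2.11) when it was silenced too. The 2 genes are near-identical copies and their probe sets may read both.

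Of the list of glutathione transferases and NRF2 targets, 5 of 20 measured members were above the sum and 2 below, with a median interaction of 0.19, beside -0.02 over all genes. The glutathione peroxidase GPX2 was above it by 0.97 ± 0.15 although sißCat-both did not raise it: its means were 9.52 in siCtrl, 8.43 after sißCat-WT, 7.82 after sißCat-mut and 7.71 after sißCat-both, so the 2 single falls did not add. The haem oxygenase HMOX1 (0.89) and thioredoxin TXN (0.37) were above the sum, GSTO1 (-0.42) and GSTM3 (-0.40) below it. The members below depended on single arrays: without the second siCtrl array 0 were called.

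Carboxylesterases and drug-handling enzymes had the highest share above the sum of the lists with at least 5 measured, 7 of 9 with 0 below, with a median of 0.59. Their median change after loss of the full-length form was -0.77 when it was lost alone (0 higher, 5 lower) and 0.59 on top of truncated loss (5 higher, 1 lower). Of all genes, 5.20% were called higher and 4.97% lower in the first contrast, and 10.6% and 11.6% in the second. The carboxylesterase CES1, which hydrolyses ester drugs and lipids, read 8.62, 8.63 and 8.54 in siCtrl, 7.27, 6.76 and 6.88 after sißCat-WT, 8.67, 8.60 and 8.21 after sißCat-mut and 10.52, 10.32 and 10.78 after sißCat-both. sißCat-mut overlapped siCtrl, and the sißCat-WT arrays were lowest and the sißCat-both arrays highest, clear of the others. Its interaction was 3.67 ± 0.21 (limma adjusted p = 4e-07), and a second probe set gave 2.18. AADAC, a deacetylase of the liver endoplasmic reticulum, read 4.94, 4.86 and 5.15 in siCtrl, 4.03, 3.82 and 3.89 after sißCat-WT, 5.34, 5.53 and 5.37 after sißCat-mut and 7.99, 8.02 and 8.58 after sißCat-both. Only the sißCat-both arrays were clear of the floor region by a wide margin, so the fall of -1.07 after sißCat-WT is of uncertain size. The interaction of AADAC was 3.85 ± 0.19 (limma adjusted p = 1.7e-07). ADH6, an alcohol dehydrogenase, fell by 1.27 and by 0.76 after the single RNAs and had 9.0, 8.97 and 8.89 in siCtrl, 7.92, 7.37 and 7.77 after sißCat-WT, 8.50, 8.11 and 7.98 after sißCat-mut and 9.16, 9.18 and 9.27 after sißCat-both, so that sißCat-both arrays lay above all the others, siCtrl next to them. It departed by 2.27 ± 0.20. DPYD, AOX1, NAT2 and ALDH2, which break down pyrimidines, aldehydes, arylamine drugs and acetaldehyde, were above the sum by 1.12, 0.59, 0.58 and 0.52.

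The promoters of the 3 genes farthest above the sum are shown, as the 250 bases before the start in RefSeq on GRCh38.p14. Capitals mark, on either strand, CTTTGA or CTTTGT (the core of TCF/LEF sites), GTTAAT (part of an HNF1 site) and TATAAA. The GSTA2 window (chr6:52763476-52763725, minus strand) and the GSTA1 window (chr6:52803817-52804066, minus strand) were identical at 243 of 250 positions and each held 2 TCF/LEF matches, 1 HNF1 half-site and 1 TATA box. The AADAC window (chr3:151813866-151814115, plus strand) held 1 TCF/LEF match.
GSTA2: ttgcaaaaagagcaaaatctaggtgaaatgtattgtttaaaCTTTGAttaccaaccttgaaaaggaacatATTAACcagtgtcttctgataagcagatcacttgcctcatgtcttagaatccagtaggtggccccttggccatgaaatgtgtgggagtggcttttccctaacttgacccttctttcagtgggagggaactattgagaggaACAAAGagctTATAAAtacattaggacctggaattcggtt
GSTA1: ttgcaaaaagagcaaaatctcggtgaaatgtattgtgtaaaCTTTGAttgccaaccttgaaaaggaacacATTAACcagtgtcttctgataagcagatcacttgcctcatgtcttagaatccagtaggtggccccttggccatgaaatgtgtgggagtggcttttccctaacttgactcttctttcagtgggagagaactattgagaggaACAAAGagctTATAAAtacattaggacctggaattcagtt
AADAC: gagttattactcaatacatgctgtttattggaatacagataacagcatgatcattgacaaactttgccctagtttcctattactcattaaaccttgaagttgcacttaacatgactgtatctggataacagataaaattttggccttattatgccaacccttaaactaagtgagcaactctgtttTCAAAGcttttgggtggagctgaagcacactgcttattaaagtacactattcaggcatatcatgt

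A match describes the letters of the window and is not evidence of binding. A gene was counted if any of its windows held a match. TCF/LEF matches were held by 23.8% of the 10749 tested genes with a promoter entry, 21.6% of the 926 above the sum and 22.5% of the 1047 below it. The HNF1 half-site stood in 5.99%, 7.13% and 4.68%, and TATAAA in 10.7%, 9.94% and 8.31%. The AP-1 letters TGANTCA stood in 7.08%, 6.26% and 6.21%, the TEAD letters GGAATG in 13.3%, 11.9% and 14.2%, the E-box CACGTG in 9.88%, 9.5% and 11.7%, the nuclear receptor half-site AGGTCA in 13.2%, 12.3% and 12.1%, and the EGR letters GCGGGGGCG in 8.34%, 8.86% and 10.1%. No test was made of these shares, and the median GC content, taken over the first window of each gene, also differed (62.8%, 64.4% and 66%).

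**Figure D2:**
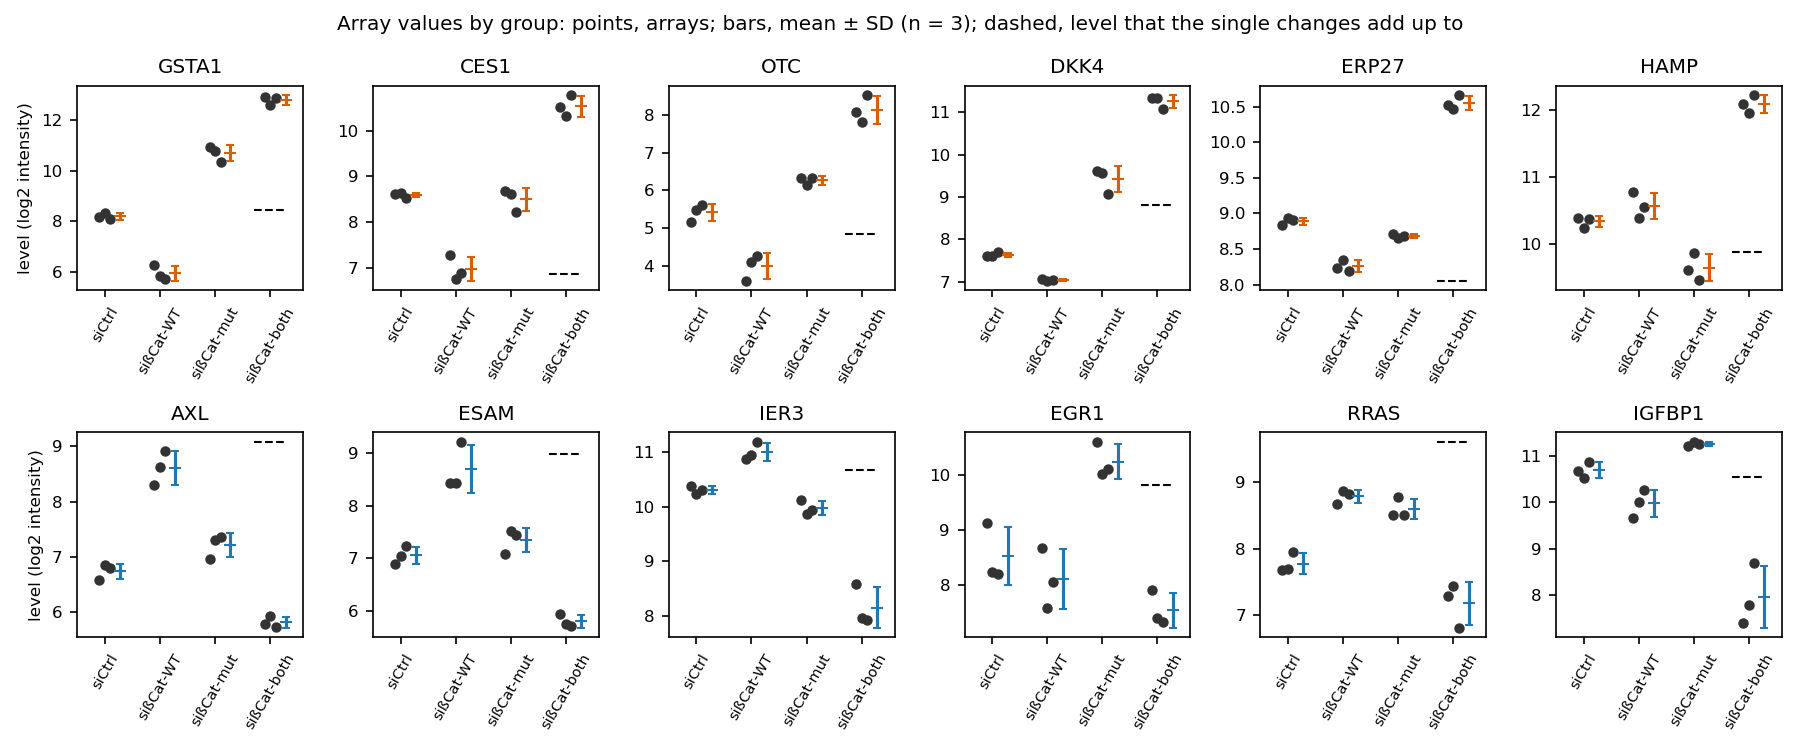
Level (log2 intensity) of 12 genes in each array by group; points are arrays, the coloured bar is mean ± SD (n = 3) and the dashed line marks the level that the single changes add up to for sißCat-both. For the 6 genes in the upper row (GSTA1, CES1, OTC, DKK4, ERP27, HAMP) all sißCat-both arrays lie above the dashed line, and for the 6 in the lower row (AXL, ESAM, IER3, EGR1, RRAS, IGFBP1) below it.

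Periportal amino acid and urea cycle genes were above the sum in 8 of 17 measured members and below it in 1, with a median of 0.44. After loss of the full-length form alone 0 rose and 8 fell (beside 5.20% and 4.97% of all genes). On top of truncated loss 5 rose and 3 fell (beside 10.6% and 11.6% of all genes). OTC, the urea cycle enzyme that makes citrulline, read 5.15, 5.48 and 5.61 in siCtrl, 3.59, 4.09 and 4.26 after sißCat-WT, 6.33, 6.14 and 6.34 after sißCat-mut and 8.08, 7.82 and 8.54 after sißCat-both. The 4 groups did not overlap, and siCtrl and sißCat-WT lay near the floor. Its interaction was 3.31 ± 0.27 (limma adjusted p = 5.03e-06). KYNU of tryptophan breakdown read 8.60, 8.67 and 8.69 in siCtrl, 7.68, 7.22 and 7.32 after sißCat-WT, 9.09, 9.04 and 9.08 after sißCat-mut and 9.55, 9.84 and 9.79 after sißCat-both, with no overlap between groups, and departed by 1.90 ± 0.15. AGXT, which detoxifies glyoxylate, had group means of 8.58 in siCtrl, 7.21 after sißCat-WT, 9.44 after sißCat-mut and 9.64 after sißCat-both and was above the sum by 1.56 ± 0.20. ASS1, NAGS and the mitochondrial ornithine carrier SLC25A15, all of the urea cycle, were above it by 1.26, 0.97 and 0.76, as were UROC1 (0.68) and FAH (0.44), enzymes of histidine and tyrosine breakdown. HAL, which starts histidine breakdown, was the member below it (-1.02), and the gluconeogenic PCK1 was not called (0.09). BHMT, the betaine methyltransferase of the methionine cycle and on none of the lists, read 7.05, 7.17 and 6.77 in siCtrl, 6.34, 6.01 and 6.28 after sißCat-WT, 7.74, 7.65 and 7.30 after sißCat-mut and 9.52, 9.0 and 9.34 after sißCat-both. The sißCat-both arrays exceeded all others by more than a unit, and its interaction was 2.51 ± 0.22.

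Secreted plasma proteins were above the sum in 10 of 22 measured members and below it in 4 (median 0.26), and coagulation and fibrinolysis genes in 6 of 15 and 2 (median 0.50). The second median depended on the scale: with effects added as linear intensities it was -0.05. Factor XI (F11), a protease of the intrinsic pathway, read 8.65, 8.67 and 8.78 in siCtrl, 7.57, 7.29 and 7.49 after sißCat-WT, 9.50, 9.60 and 9.56 after sißCat-mut and 10.004, 10.09 and 10.35 after sißCat-both. No groups overlapped, sißCat-WT was lowest and sißCat-both highest, and the interaction was 1.84 ± 0.14 (limma adjusted p = 3.31e-06). The fibrinogen chains FGA, FGB and FGG were above the sum by 0.69, 0.57 and 0.74, and CPB2, an inhibitor of fibrinolysis, by 0.73. The plasminogen gene PLG was above it by 0.95 ± 0.28 (limma adjusted p = 0.031). That call was lost under 9 of 23 alternatives, and on linear intensities the sign turned (-0.32). TFPI, the inhibitor of the tissue factor pathway (-0.98 ± 0.12), and PROC, the protein C zymogen (-0.54), were below the sum.

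Among other plasma proteins FETUB, a fetuin that inhibits proteases, read 7.19, 7.29 and 7.22 in siCtrl, 6.92, 6.56 and 6.59 after sißCat-WT, 10.75, 10.65 and 10.32 after sißCat-mut and 11.91, 11.95 and 11.85 after sißCat-both. Its change after sißCat-mut (3.34) was raised further in sißCat-both although sißCat-WT lowered it, an interaction of 1.87 ± 0.16. AFM (afamin, a vitamin E carrier) stood near the floor in every group but sißCat-both, with group means of 3.78 in siCtrl, 3.68 after sißCat-WT, 4.15 after sißCat-mut and 5.82 after sißCat-both and an interaction of 1.77 ± 0.18. Haptoglobin (HP, whose probe set may also read its copy HPR), HRG and KNG1 were above the sum by 1.60, 1.26 and 1.01, A1BG and LRG1 below it by -1.11 and -0.55. The main carriers were not called: ALB gave 0.11 and TF 0.04. IGFBP1, which binds insulin-like growth factors, was the lowest of the list and read 10.68, 10.53 and 10.86 in siCtrl, 9.66, 10.002 and 10.26 after sißCat-WT, 11.22, 11.30 and 11.25 after sißCat-mut and 7.40, 7.79 and 8.69 after sißCat-both. The 3 sißCat-both arrays were below all others and spread over more than a unit, and its interaction was -2.58 ± 0.34 (limma adjusted p = 0.000236).

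Complement component C6, a part of the membrane attack complex, read 6.60, 6.84 and 6.58 in siCtrl, 5.16, 5.01 and 5.42 after sißCat-WT, 7.59, 7.77 and 7.88 after sißCat-mut and 8.62, 8.61 and 8.88 after sißCat-both, without overlap of groups, and departed by 2.44 ± 0.17. The rest of the complement list did less, with 2 of 11 members above the sum (C6 and C2, the latter not called on linear intensities) and 1 below (CFB of the alternative pathway, -0.72 ± 0.13). The paraoxonase PON1, a high-density lipoprotein enzyme, had means of 4.91 in siCtrl, 4.91 after sißCat-WT, 6.56 after sißCat-mut and 8.25 after sißCat-both and an interaction of 1.69 ± 0.22. MTTP, which loads lipid onto apolipoprotein B, fell by 0.97 after sißCat-WT and gave means of 10.12 in siCtrl, 9.15 after sißCat-WT, 10.14 after sißCat-mut and 9.99 after sißCat-both, an interaction of 0.83 ± 0.13. Apolipoproteins and lipid carriers as a list had 4 of 17 above and 3 below, and APOA1 and APOB themselves gave 0.07 and 0.12, neither called.

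Hepcidin (HAMP), the liver hormone that limits iron release and a target of BMP signalling, read 10.39, 10.24 and 10.38 in siCtrl, 10.78, 10.38 and 10.55 after sißCat-WT, 9.61, 9.86 and 9.46 after sißCat-mut and 12.09, 11.95 and 12.22 after sißCat-both. sißCat-mut was lowest, sißCat-both highest by more than a unit, and sißCat-WT overlapped siCtrl. The change of -0.69 after sißCat-mut and 1.75 after sißCat-both left an interaction of 2.21 ± 0.17 (limma adjusted p = 3.36e-06). Of the TGF-beta and BMP pathway list 6 of 17 were above the sum and 1 below (median 0.18), among them the inhibitory SMAD6 (0.86 ± 0.14), the shared SMAD4 (0.64) and the BMP-regulated SMAD1 (0.44) and SMAD5 (0.40). The co-repressor TGIF1 was below it (-0.81 ± 0.14). The 6 members became 3 when the second siCtrl, first sißCat-WT, second sißCat-both, the third sißCat-both or second sißCat-mut array was left out.

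Metallothioneins, small proteins that bind zinc and copper, were above the sum in 4 of 9 members and below it in 0 (median 0.49). MT1F had means of 11.04 in siCtrl, 10.23 after sißCat-WT, 12.03 after sißCat-mut and 12.19 after sißCat-both and an interaction of 0.97 ± 0.12. MT1B read 3.58, 3.68 and 3.42 in siCtrl, 3.59, 3.47 and 3.44 after sißCat-WT, 3.80, 4.67 and 4.0 after sißCat-mut and 6.92, 7.53 and 5.65 after sißCat-both, near the floor outside sißCat-both and with a wide spread in that group, and departed by 2.60 ± 0.49. MT1H and MT1G were above it by 1.17 and 0.64, and MT2A was not called (-0.08). Members of this family are close copies and their signals may be shared.

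Fatty acid oxidation and PPARA target genes were above the sum in 7 of 18 members and below it in 1 (median 0.29). PPARA, the receptor that drives fatty acid oxidation, read 7.69, 7.79 and 7.48 in siCtrl, 7.16, 6.98 and 7.02 after sißCat-WT, 8.51, 8.61 and 8.51 after sißCat-mut and 9.02, 8.89 and 9.23 after sißCat-both, with no overlap between groups, and departed by 1.1 ± 0.14. The peroxisomal HSD17B4 (0.75 ± 0.12), the thiolases ACAA1 (0.57) and ACAA2 (0.61) and the liver factor CREB3L3 (0.56) were above it too. VNN1, a pantetheinase, went the other way and read 4.11, 4.35 and 4.10 in siCtrl, 4.20, 3.66 and 4.0 after sißCat-WT, 7.24, 7.55 and 8.20 after sißCat-mut and 4.49, 4.70 and 5.08 after sißCat-both. sißCat-mut alone raised it by 3.48 and sißCat-both arrays stayed near the floor, an interaction of -2.67 ± 0.30 (limma adjusted p = 6.48e-05).

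p53 target genes were above the sum in 8 of 16 members and below it in 3 (median 0.32). SESN1, a sestrin that restrains growth signalling, read 7.11, 7.11 and 7.05 in siCtrl, 7.24, 7.50 and 7.37 after sißCat-WT, 6.74, 6.96 and 6.83 after sißCat-mut and 7.96, 8.17 and 8.20 after sißCat-both, highest in sißCat-both without overlap, and departed by 0.98 ± 0.13. SESN2, SPATA18, AEN, PLK2, TRIAP1, BAX and CCNG1 were above it by 0.33 to 0.74. GDF15, a stress hormone, was below it and read 11.63, 11.49 and 11.50 in siCtrl, 12.18, 12.37 and 12.55 after sißCat-WT, 11.91, 11.74 and 11.63 after sißCat-mut and 10.92, 11.08 and 11.11 after sißCat-both, with an interaction of -1.55 ± 0.15, as were PLK3 (-0.81 ± 0.15) and TIGAR (-0.46). The 8 members above became 5 without the second siCtrl or the second sißCat-mut array.

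Mitochondrial ribosomal protein genes were above the sum in 14 of 55 members and below it in 3, by little (median 0.16). MRPL45 led with means of 11.76 in siCtrl, 11.22 after sißCat-WT, 11.45 after sißCat-mut and 11.63 after sißCat-both and an interaction of 0.72 ± 0.10. Of the ATF4 target and tRNA synthetase list 6 of 23 were above and 1 below, but the median was 0.04. The lipoprotein receptor VLDLR led the members above (1.47 ± 0.20). They also included the serine and asparagine synthesis genes PHGDH (0.74 ± 0.11), PSAT1 (0.35), PSPH (0.33) and ASNS (0.54 ± 0.14). The ASNS call was lost under 2 alternative fits.

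Several of the leading genes above the sum belong to other functions. The homeobox factor MIXL1, known from endoderm formation, read 9.57, 10.09 and 10.11 in siCtrl, 7.55, 7.14 and 7.50 after sißCat-WT, 8.53, 8.31 and 8.28 after sißCat-mut and 8.83, 8.27 and 8.55 after sißCat-both. All 3 knockdowns were below siCtrl, and since the single falls of 2.52 and 1.55 did not add, sißCat-both was above the sum by 2.70 ± 0.23 while below the control. ERP27, a chaperone-like protein of the endoplasmic reticulum, read 8.84, 8.94 and 8.90 in siCtrl, 8.24, 8.35 and 8.20 after sißCat-WT, 8.71, 8.65 and 8.69 after sißCat-mut and 10.53, 10.47 and 10.66 after sißCat-both. It read lower than siCtrl after either single RNA and higher after sißCat-both, with no overlap, and had the smallest adjusted p of the genes named (interaction 2.50 ± 0.10, limma adjusted p = 3.75e-08). The long non-coding RNA HULC, abundant in liver tumours, had means of 7.54 in siCtrl, 6.79 after sißCat-WT, 8.62 after sißCat-mut and 10.14 after sißCat-both and an interaction of 2.28 ± 0.16. SNAI2, a repressor known from epithelial-mesenchymal transition, read 5.95, 5.71 and 5.95 in siCtrl, 5.14, 4.88 and 5.19 after sißCat-WT, 8.92, 9.12 and 8.82 after sißCat-mut and 9.89, 10.13 and 10.39 after sißCat-both, with no overlap, and departed by 1.99 ± 0.18.

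Several genes above the sum were low in other groups. FLRT3, OSBPL6 and CXCL8 were near the floor in every group except sißCat-both. FLRT3, a cell-surface ligand, read 3.21, 3.15 and 3.12 in siCtrl, 3.37, 3.08 and 3.09 after sißCat-WT, 3.35, 3.42 and 3.49 after sißCat-mut and 5.75, 6.12 and 5.94 after sißCat-both, and its interaction was 2.50 ± 0.14. OSBPL6, a lipid transfer protein, had means of 4.55 in siCtrl, 4.63 after sißCat-WT, 5.01 after sißCat-mut and 7.68 after sißCat-both and an interaction of 2.60 ± 0.19, and the chemokine CXCL8 means of 4.0 in siCtrl, 3.90 after sißCat-WT, 4.30 after sißCat-mut and 6.59 after sißCat-both and 2.40 ± 0.32. CUBN (cubilin, an uptake receptor) read 5.39, 5.40 and 5.77 in siCtrl, 4.56, 4.53 and 4.40 after sißCat-WT, 4.44, 4.47 and 4.38 after sißCat-mut and 5.93, 5.35 and 6.41 after sißCat-both. Both single RNAs lowered it by about a unit, the sißCat-both and siCtrl arrays overlapped, and the interaction was 2.49 ± 0.27. KLF15, a factor of amino acid metabolism, was above the sum by 1.34 ± 0.31, with group means of 5.42 in siCtrl, 5.28 after sißCat-WT, 5.84 after sißCat-mut and 7.04 after sißCat-both and sißCat-both levels of 7.19, 6.34 and 7.59.

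**Figure D3:**
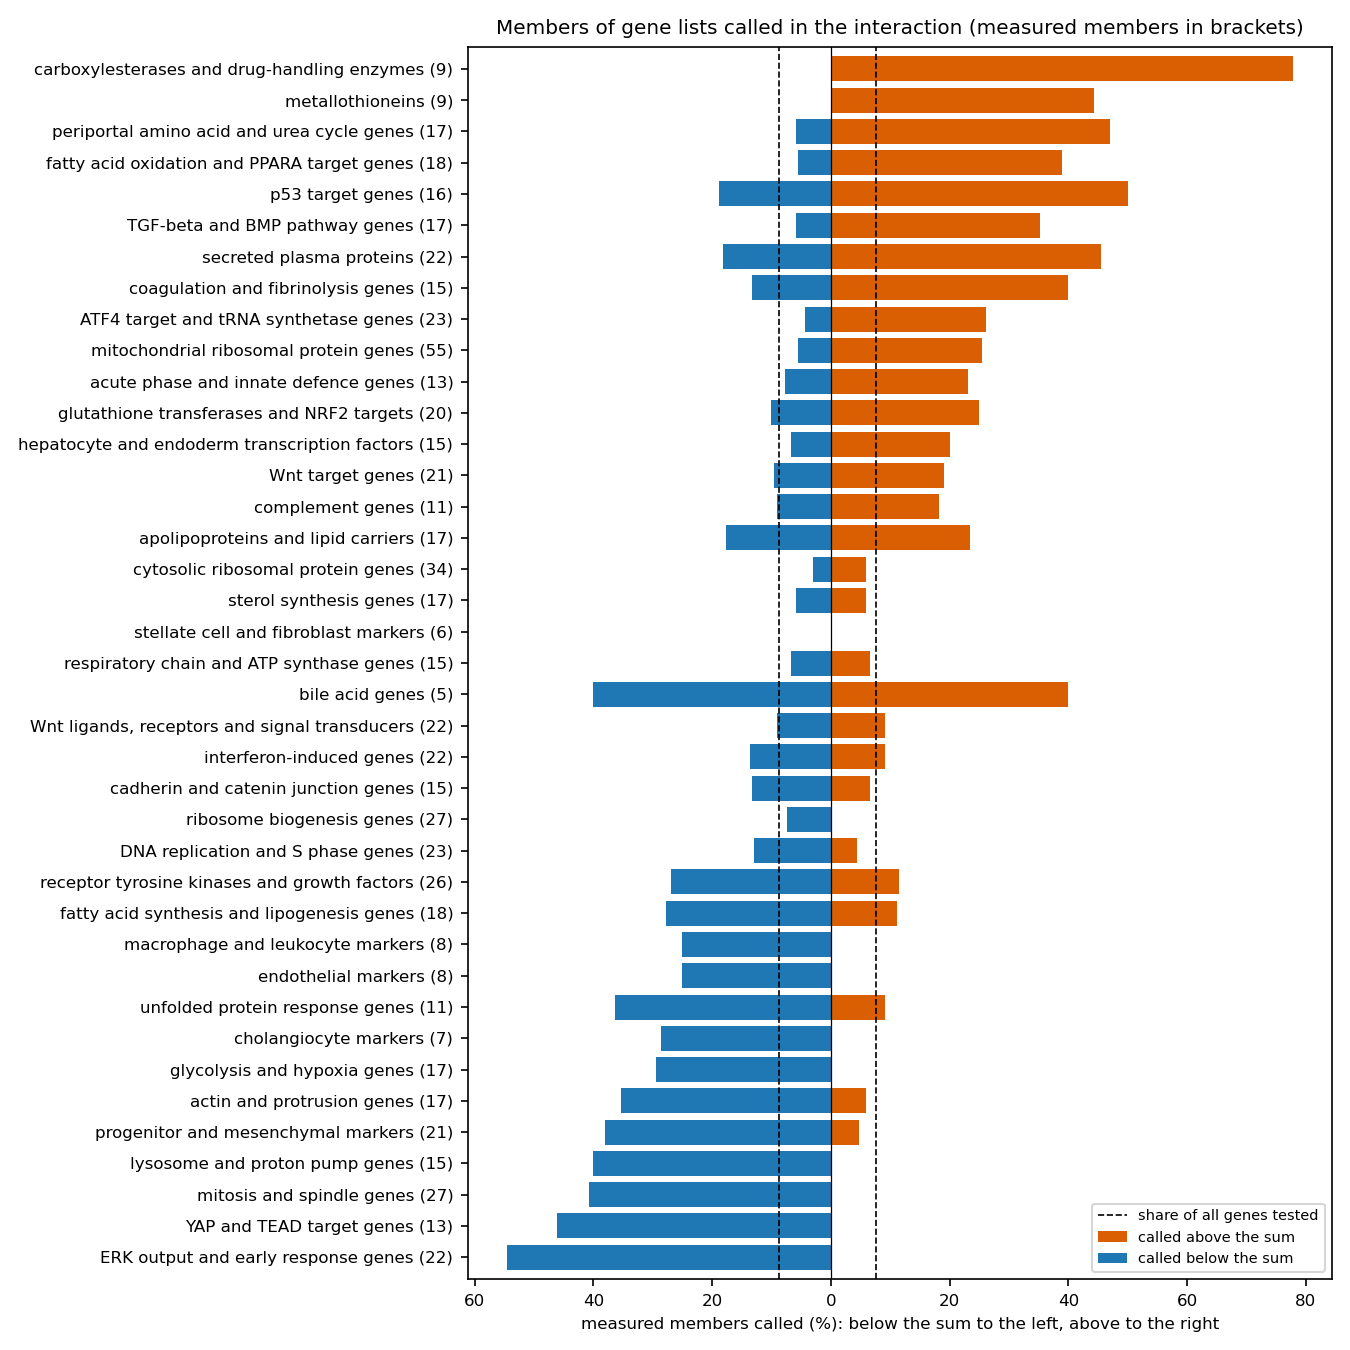
Share of measured members called above (orange, right) and below (blue, left) the sum for the 39 gene lists with at least 5 measured members, whose number is in brackets; dashed lines mark the shares over all genes (7.60% and 8.79%). Drug-handling enzymes reach 77.8% above, ERK output and early response genes 54.5% below.

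Below the sum AXL led, a receptor tyrosine kinase for GAS6 and a target of YAP. AXL read 6.58, 6.85 and 6.79 in siCtrl, 8.30, 8.63 and 8.91 after sißCat-WT, 6.96, 7.31 and 7.36 after sißCat-mut and 5.79, 5.93 and 5.74 after sißCat-both. No groups overlapped, sißCat-WT was highest and sißCat-both lowest. The single changes of 1.87 and 0.47 added up to 2.34, the joint change was -0.92, and the interaction was -3.26 ± 0.20 (limma adjusted p = 7.18e-07). ESAM, an adhesion molecule of tight junctions, read 6.90, 7.05 and 7.23 in siCtrl, 8.43, 8.43 and 9.21 after sißCat-WT, 7.08, 7.52 and 7.44 after sißCat-mut and 5.94, 5.76 and 5.72 after sißCat-both, with sißCat-WT highest and sißCat-both below all others. Its interaction was -3.17 ± 0.26 (limma adjusted p = 5.03e-06). In both genes full-length loss went with a rise when the truncated form was left and with a fall when it was silenced.

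The AXL windows are shown as those of the gene farthest below the sum, for its 2 starts in RefSeq (chr19:41218973-41219222 and chr19:41226505-41226754, plus strand, GRCh38.p14), with the TCF/LEF letters and GGAATG of TEAD factors in capitals on either strand. The first held none of the motifs searched, and the second held 1 TCF/LEF and 1 TEAD match.
AXL start 1: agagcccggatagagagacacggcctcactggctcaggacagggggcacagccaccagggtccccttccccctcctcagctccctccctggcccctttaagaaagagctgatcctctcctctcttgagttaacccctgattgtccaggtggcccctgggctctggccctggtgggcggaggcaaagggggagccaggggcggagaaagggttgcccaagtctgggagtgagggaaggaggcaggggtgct
AXL start 2: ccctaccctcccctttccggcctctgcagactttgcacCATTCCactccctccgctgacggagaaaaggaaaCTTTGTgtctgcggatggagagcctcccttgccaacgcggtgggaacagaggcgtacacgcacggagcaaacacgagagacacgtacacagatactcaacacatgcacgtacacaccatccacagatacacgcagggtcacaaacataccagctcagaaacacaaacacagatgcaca

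YAP and TEAD target genes were below the sum in 6 of 13 measured members and above it in 0 (median -0.26). After full-length loss alone 6 of them rose and 1 fell (median 0.37), beside 5.20% and 4.97% of all genes. On top of truncated loss 3 rose and 7 fell (median -0.30), beside 10.6% and 11.6% of all genes. ANKRD1, a nuclear cofactor induced by YAP, read 8.24, 8.47 and 8.86 in siCtrl, 10.39, 10.53 and 10.70 after sißCat-WT, 9.22, 9.48 and 9.65 after sißCat-mut and 9.20, 9.66 and 9.50 after sißCat-both. The sißCat-mut and sißCat-both arrays overlapped between siCtrl and sißCat-WT, and the interaction was -2.02 ± 0.23. CCN2, the matricellular growth factor, read 11.33, 11.39 and 11.46 in siCtrl, 11.78, 11.69 and 12.02 after sißCat-WT, 12.33, 12.46 and 12.60 after sißCat-mut and 11.16, 11.46 and 11.08 after sißCat-both, where sißCat-both overlapped siCtrl although both single RNAs had raised it. Its interaction was -1.67 ± 0.16, and a second probe set gave -2.16. MYOF, CRIM1 and FJX1 were below it by -1.57, -1.18 and -0.64, while THBS1 and AMOTL2 gave -0.06 and 0.10 and were not called.

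ERK output and early response genes, which growth factor signalling through ERK switches on, had the highest share below the sum of the lists with at least 5 measured: 12 of 22, with 0 above and a median of -0.53. After full-length loss alone 7 rose and 0 fell (beside 5.20% and 4.97% of all genes). On top of truncated loss 0 rose and 10 fell (beside 10.6% and 11.6% of all genes). IER3, an early response survival gene, read 10.37, 10.24 and 10.29 in siCtrl, 10.87, 10.94 and 11.18 after sißCat-WT, 10.12, 9.86 and 9.95 after sißCat-mut and 8.58, 7.97 and 7.94 after sißCat-both. The sißCat-both arrays were below all others by more than a unit and sißCat-WT arrays above all others, an interaction of -2.50 ± 0.21 (limma adjusted p = 5.74e-06). Of its 11 probe sets 6 gave -2.59 to -2.47, several of them reading alike at a mean level of 9.85 (-2.47). The other 5, which also read alike, at a mean level of 7.17, gave -1.06. The 11 are therefore not separate measurements. The zinc finger factor EGR1 read 9.13, 8.25 and 8.20 in siCtrl, 8.67, 7.60 and 8.07 after sißCat-WT, 10.59, 10.01 and 10.09 after sißCat-mut and 7.91, 7.41 and 7.34 after sißCat-both. Its sißCat-mut arrays were highest with no overlap, and sißCat-both overlapped sißCat-WT. The interaction was -2.27 ± 0.40, and another probe set gave -0.66. DUSP5, a phosphatase that shuts off nuclear ERK, read 4.47, 4.90 and 4.69 in siCtrl, 5.48, 6.22 and 6.46 after sißCat-WT, 5.51, 5.38 and 5.30 after sißCat-mut and 4.43, 4.54 and 4.40 after sißCat-both, with sißCat-both overlapping siCtrl near the floor, and departed by -2.31 ± 0.27. A dimmer probe set of DUSP5 gave -0.32.

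The feedback inhibitors SPRY4 and DUSP6 (-2.09 and -1.74), the ETS factors ETV4 and ETV5 (-1.25 and -0.56), the AP-1 subunits FOSL1, JUNB and FOSL2 (-1.19, -0.94 and -0.49), the ligand EREG (-1.09 ± 0.22) and the receptor EPHA2 (-0.73) were also below the sum. FOS, JUN and IER2 were not called (-0.32, -0.41 and -0.33). RRAS, a small GTPase related to RAS, is on no list and read 7.68, 7.70 and 7.96 in siCtrl, 8.68, 8.87 and 8.83 after sißCat-WT, 8.51, 8.78 and 8.51 after sißCat-mut and 7.29, 7.43 and 6.82 after sißCat-both. Either single RNA raised it, sißCat-both lay below siCtrl without overlap, and the interaction was -2.43 ± 0.20 (limma adjusted p = 5.03e-06).

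The gene of the microRNA miR-21, known as induced by AP-1 and abundant in tumours, was also below the sum; it falls outside the rule for naming genes and was chosen after its values were seen. Its probe set reads the gene's transcript and not the mature RNA. MIR21 read 8.58, 8.44 and 8.66 in siCtrl, 9.29, 9.38 and 9.36 after sißCat-WT, 8.52, 8.09 and 8.66 after sißCat-mut and 6.92, 6.74 and 7.39 after sißCat-both. sißCat-WT was highest and sißCat-both lowest, both without overlap, and sißCat-mut overlapped siCtrl. The interaction was -2.19 ± 0.23 (limma adjusted p = 3.14e-05). The mature product (chr17:59841273-59841294, plus strand, GRCh38.p14, RefSeq) is shown with its seed, bases 2 to 8, in capitals, since the seed decides which messages it pairs with.
hsa-miR-21-5p: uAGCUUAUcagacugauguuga

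Mitosis and spindle genes were below the sum in 11 of 27 measured members and above it in 0 (median -0.42). The loss of the full-length form alone raised 2 and lowered 0 (beside 5.20% and 4.97% of all genes). On top of truncated loss it lowered 11 and raised 0 (beside 11.6% and 10.6% of all genes). PRC1, which bundles microtubules of the central spindle, read 9.04, 9.02 and 9.03 in siCtrl, 9.39, 9.44 and 9.34 after sißCat-WT, 8.57, 8.50 and 8.47 after sißCat-mut and 7.96, 7.59 and 7.54 after sißCat-both. sißCat-WT was above siCtrl, both other groups below it, none overlapping, and the interaction was -1.17 ± 0.14. The checkpoint kinase BUB1 (-0.68 ± 0.14) and the cyclin-dependent kinase CDK1 (-0.67 ± 0.14) were below it, as were TOP2A, KIF11, KIF23, BUB1B and ECT2 (-0.64 to -0.52). The first sißCat-both array read highest of its group for PRC1, BUB1 and CDK1, and without it the count below the sum was 19. DNA replication and S phase genes departed less: 3 of 23 below the sum (MCM3, PCNA and RRM2, the last lost under 12 of 23 alternatives) and 1 above (TYMS). These are 13% and 4.35%, beside 8.79% and 7.60% of all genes. The median was -0.17, and 6 were below when that array was left out. MCM3, a subunit of the replicative helicase, had means of 10.81 in siCtrl, 10.95 after sißCat-WT, 9.97 after sißCat-mut and 9.04 after sißCat-both and an interaction of -1.08 ± 0.20.

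Lysosome and proton pump genes were below the sum in 6 of 15 members and above it in 0 (median -0.27). After full-length loss alone 8 rose and 0 fell (beside 5.20% and 4.97% of all genes). On top of truncated loss 2 rose and 5 fell (beside 10.6% and 11.6% of all genes). The sialidase NEU1 had means of 10.49 in siCtrl, 10.88 after sißCat-WT, 10.80 after sißCat-mut and 10.39 after sißCat-both and an interaction of -0.79 ± 0.14, the peptidase TPP1 7.82 in siCtrl, 8.20 after sißCat-WT, 8.43 after sißCat-mut and 8.10 after sißCat-both and -0.71 ± 0.10, and the calcium channel MCOLN1 7.70 in siCtrl, 8.09 after sißCat-WT, 8.05 after sißCat-mut and 7.79 after sißCat-both and -0.66 ± 0.11. In each of the 3 both single RNAs read higher than siCtrl and sißCat-both fell short of the sum.

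Actin and protrusion genes were below the sum in 6 of 17 members and above it in 1 (median -0.36). TPM1, a tropomyosin of the actin filament, read 6.48, 6.66 and 6.63 in siCtrl, 7.09, 7.05 and 7.09 after sißCat-WT, 7.08, 7.09 and 7.05 after sißCat-mut and 6.78, 6.94 and 6.71 after sißCat-both. The 2 single groups overlapped, sißCat-both lay between them and siCtrl, and the interaction was -0.75 ± 0.11. The actin-binding CNN2 (-0.67 ± 0.10, and -0.44 in a dimmer probe set), PDLIM7 (-0.85 ± 0.21) and talin TLN1 (-0.40) were below it as well, and LIMA1 was above it (0.52). Vinculin (VCL), which ties cadherin and integrin sites to actin, read 8.74, 8.88 and 8.84 in siCtrl, 9.30, 9.31 and 9.26 after sißCat-WT, 8.78, 8.99 and 8.82 after sißCat-mut and 8.56, 8.55 and 8.59 after sißCat-both and departed by -0.77 ± 0.10, while most of the cadherin and catenin junction list was not called (1 of 15 above, 2 below). Of the matrix and integrin list 4 members were measured and 3 were below the sum, the basement membrane proteoglycans HSPG2 (-1.24 ± 0.18) and AGRN (-1.0 ± 0.09) and fibronectin FN1 (-0.39 ± 0.09).

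Progenitor and mesenchymal markers were below the sum in 8 of 21 members and above it in 1, which was SNAI2. The keratin KRT23 read 10.76, 10.86 and 10.92 in siCtrl, 11.69, 11.77 and 11.83 after sißCat-WT, 9.73, 9.80 and 9.64 after sißCat-mut and 9.29, 8.66 and 8.38 after sißCat-both, with sißCat-both below all others, and departed by -1.86 ± 0.23. The adhesion molecule ICAM1 (-1.08 ± 0.14), osteopontin SPP1 (-0.96), CD24 (-0.92), SOX4 (-0.76) and KRT19 (-0.65 ± 0.12) were below it, and EPCAM and AFP were not called (0.15 and 0.12). KRT19 and SOX9 are also 2 of the 7 measured cholangiocyte markers, whose mean level over the list was 7.53 to 7.64 in siCtrl arrays and 7.35 to 7.42 in sißCat-both. Stellate cell markers had 0 of 6 called, and endothelial and macrophage markers 2 of 8 below the sum each (25%, beside 8.79% of all genes). List means over all arrays were 4.37 to 4.67 for endothelial and 6.43 to 6.70 for macrophage markers. LYVE1 and TYROBP, the lowest of these 2 lists, each lost their call under 9 alternatives. The part of other cell states in these departures was not tested.

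Glycolysis and hypoxia genes were below the sum in 5 of 17 members and above it in 0 (median -0.28). Hexokinase HK2 read 9.33, 9.52 and 9.57 in siCtrl, 9.13, 9.08 and 9.49 after sißCat-WT, 8.56, 8.54 and 8.62 after sißCat-mut and 7.30, 6.80 and 7.44 after sißCat-both, lowest in sißCat-both, with an interaction of -1.15 ± 0.21 that was lost when effects were added as linear intensities. PGAM1, BNIP3L, ADM and VEGFA were below it by -0.56 to -0.71. Unfolded protein response genes had 4 of 11 below and 1 above, led by the chaperone HYOU1, which read 9.37, 9.49 and 9.59 in siCtrl, 9.40, 9.35 and 9.50 after sißCat-WT, 9.64, 9.70 and 9.77 after sißCat-mut and 8.74, 8.47 and 8.66 after sißCat-both and departed by -1.02 ± 0.12, while a dimmer probe set gave -0.59. Of fatty acid synthesis and lipogenesis genes 5 of 18 were below and 2 above. ACLY, the enzyme that makes cytosolic acetyl-CoA, read 11.92, 11.97 and 11.99 in siCtrl, 11.98, 12.01 and 11.96 after sißCat-WT, 12.42, 12.42 and 12.32 after sißCat-mut and 11.74, 11.43 and 11.34 after sißCat-both, highest in sißCat-mut and lowest in sißCat-both, and departed by -0.91 ± 0.13, and FASN, ELOVL6 and FADS2 by -0.55, -0.65 and -0.52. MLXIPL, a glucose-sensing factor, was above the sum (0.88 ± 0.21).

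Receptor tyrosine kinases and growth factors were split, 3 of 26 above the sum and 7 below. EPHA1 (0.95 ± 0.16, a call lost on linear intensities), INSR (0.72) and IGF1R (0.65) were above, FGFR1 (-0.76) and the bile acid-linked FGFR4 (-0.69 ± 0.11) below. The bile acid list was split as well, with 2 of 5 measured members above the sum and 2 below. BAAT (0.80 ± 0.20) and KLB (0.54) were above it, FGFR4 and SLC51B below. The bile salt exporter subunit SLC51B read 7.37, 7.49 and 7.34 in siCtrl, 8.01, 7.86 and 8.05 after sißCat-WT, 10.05, 10.07 and 9.64 after sißCat-mut and 8.77, 8.20 and 8.52 after sißCat-both, with sißCat-both between sißCat-mut and the others, an interaction of -2.0 ± 0.20. Of the interferon-induced genes 2 of 22 were above (9.09%, beside 7.60% of all genes) and 3 below (13.6%, beside 8.79%). The largest were IFITM2 (-1.76 ± 0.19) and its near copy IFITM1 (-1.35 ± 0.20).

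The remaining leading genes below the sum were of mixed function. CD109, a surface protein that restrains TGF-beta signalling, read 5.80, 6.11 and 6.0 in siCtrl, 6.63, 6.76 and 6.40 after sißCat-WT, 6.99, 7.23 and 6.96 after sißCat-mut and 4.95, 5.39 and 4.92 after sißCat-both. Both single RNAs raised it and sißCat-both was below siCtrl, with no overlap of sißCat-both with any group, for an interaction of -2.60 ± 0.19; another probe set gave -0.40. PAEP, a secreted lipocalin, read 4.91, 4.54 and 4.80 in siCtrl, 5.33, 5.26 and 6.23 after sißCat-WT, 5.71, 5.79 and 6.33 after sißCat-mut and 4.17, 4.50 and 3.79 after sißCat-both, near the floor in siCtrl and sißCat-both, with an interaction of -2.65 ± 0.35. FRMD5, a junctional FERM-domain protein, read 6.0, 6.35 and 6.61 in siCtrl, 8.0, 8.27 and 8.38 after sißCat-WT, 5.14, 5.30 and 5.22 after sißCat-mut and 4.86, 4.69 and 4.53 after sißCat-both and departed by -2.42 ± 0.20. TCP11L2 read 7.40, 7.36 and 7.54 in siCtrl, 8.40, 8.44 and 8.96 after sißCat-WT, 7.47, 7.64 and 7.70 after sißCat-mut and 6.33, 6.46 and 6.38 after sißCat-both, an interaction of -2.38 ± 0.18, and MOSPD1 had means of 7.30 in siCtrl, 8.60 after sißCat-WT, 8.12 after sißCat-mut and 7.14 after sißCat-both and -2.28 ± 0.20. In TCP11L2 sißCat-both lay below every other array, and in MOSPD1 it overlapped siCtrl.

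**Figure D4:**
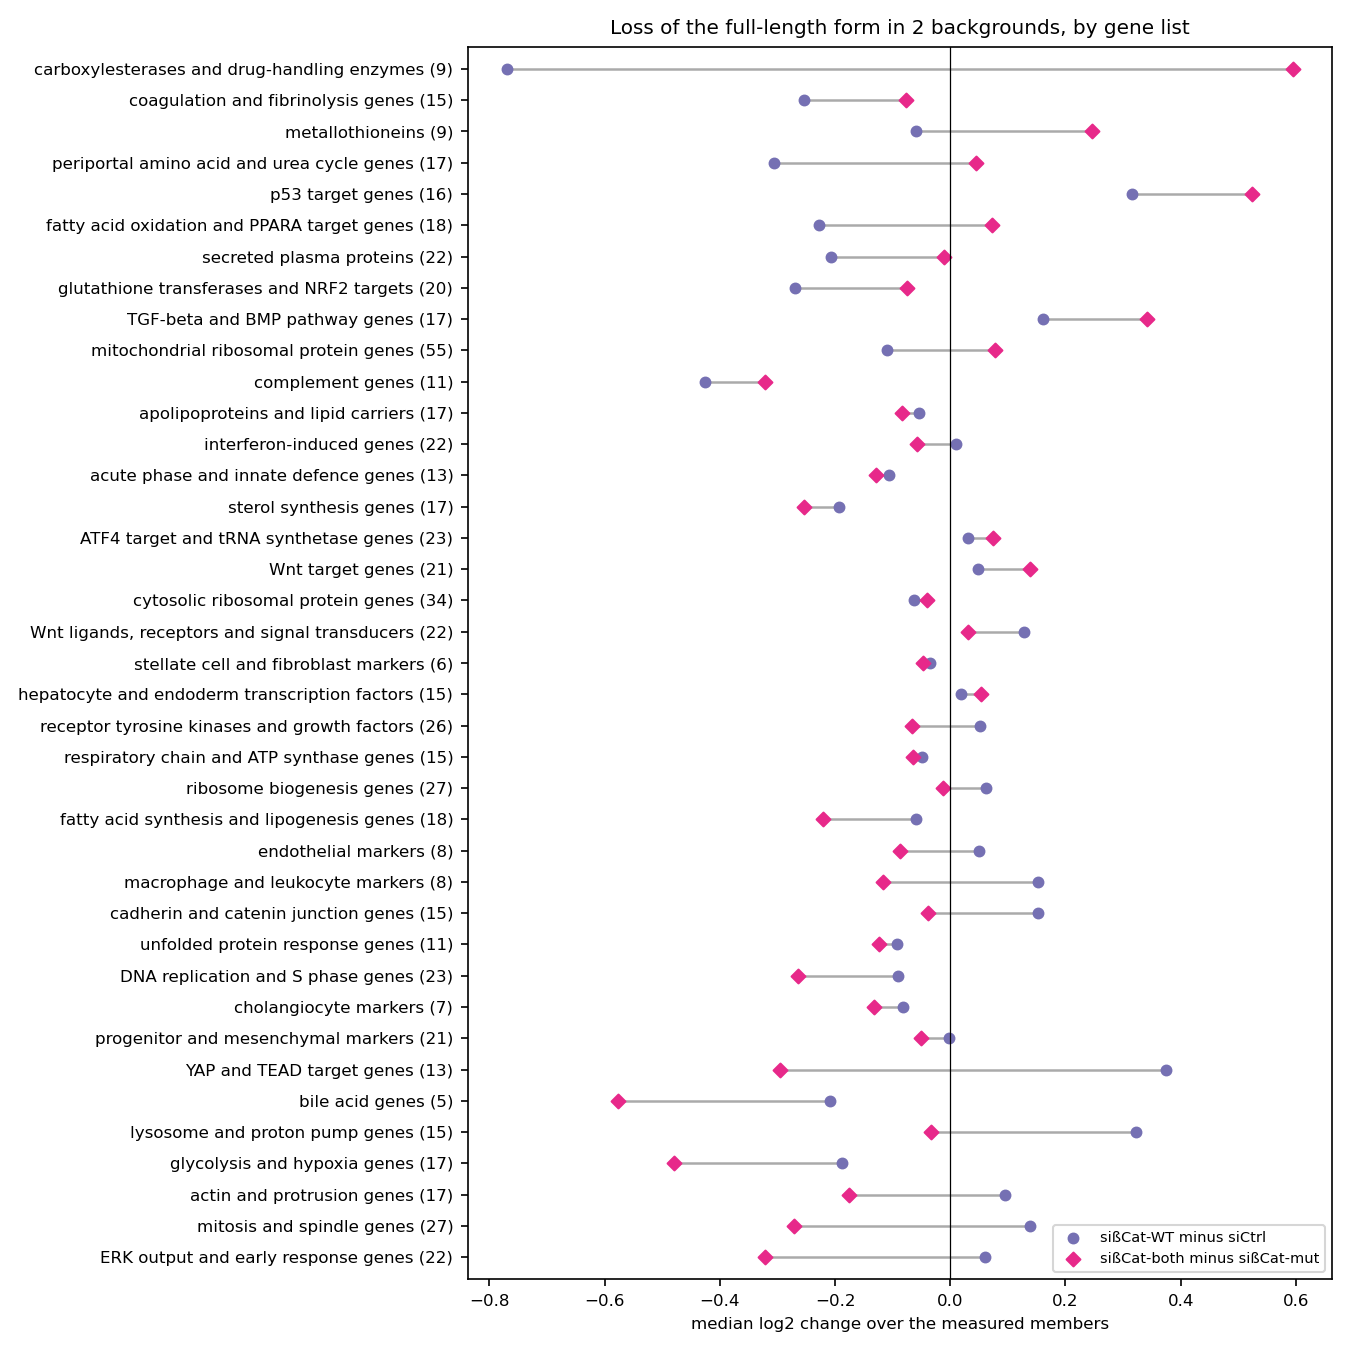
Median log2 change over the measured members of each list after loss of the full-length form alone (sißCat-WT minus siCtrl, circles) and on top of truncated loss (sißCat-both minus sißCat-mut, diamonds), ordered by the median interaction of the list. For drug-handling enzymes the median goes from -0.77 to 0.59, for YAP targets from 0.37 to -0.30, and for Wnt targets both lie close to 0 (0.05 and 0.14).

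Wnt target genes were above the sum in 4 of 21 members and below it in 2, with a median of 0.02 whose sign changed under 13 of 23 alternatives. Truncated loss alone lowered 14 of the 21 and raised 1, and on top of full-length loss it lowered 16 and raised 2. AXIN2, the feedback scaffold of the pathway, read 9.68, 9.50 and 9.65 in siCtrl, 10.05, 10.10 and 9.97 after sißCat-WT, 6.71, 5.83 and 5.89 after sißCat-mut and 7.28, 6.04 and 6.44 after sißCat-both. The sißCat-mut and sißCat-both arrays overlapped far below siCtrl and sißCat-WT, and the interaction was 0.02 ± 0.37, with a 95% interval of -0.79 to 0.82. NKD1, another feedback inhibitor, gave 0.18 ± 0.45 (-0.78 to 1.14), and MYC -0.14 ± 0.16 (-0.47 to 0.20). These intervals leave room for departures of up to about a unit in AXIN2 and NKD1.

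The receptor gene LGR5 and NOTUM, a Wnt-inactivating enzyme, depended on 2 arrays. LGR5 read 11.33, 11.41 and 11.48 in siCtrl, 11.38, 11.40 and 11.34 after sißCat-WT, 8.17, 6.57 and 6.02 after sißCat-mut and 9.11, 7.79 and 7.79 after sißCat-both, and its interaction was 1.34 ± 0.61 (95% interval 0.03 to 2.66, limma adjusted p = 0.173). Without the first sißCat-mut and sißCat-both arrays it was 1.53 and called (limma adjusted p = 0.000357, with 0.000357 to 0.355 over 23 alternatives). NOTUM gave -0.57 ± 0.33 (-1.29 to 0.14, limma adjusted p = 0.298), and -0.87 and called without them (0.000462, with 0.000124 to 0.543 over 23 alternatives). The 2 arrays were left out for reading apart on some Wnt targets, LGR5 among them. Leaving them out removes spread in those genes, so these p-values are not an independent test. AXIN2, NKD1 and NOTUM were also called below the sum when effects were added as linear intensities. These 5 genes were picked for their role in the pathway and not by the rule for naming.

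The secreted Wnt antagonists DKK4 and DKK1 departed in opposite directions. DKK4 read 7.61, 7.61 and 7.69 in siCtrl, 7.06, 7.01 and 7.04 after sißCat-WT, 9.61, 9.57 and 9.07 after sißCat-mut and 11.34, 11.34 and 11.09 after sißCat-both. No groups overlapped, sißCat-WT was lowest and sißCat-both highest, and it was above the sum by 2.44 ± 0.17 (limma adjusted p = 2.81e-06). It was also the 1 target of the list that truncated loss alone raised. DKK1 read 11.57, 11.45 and 11.65 in siCtrl, 11.97, 11.91 and 12.10 after sißCat-WT, 10.27, 10.20 and 10.28 after sißCat-mut and 10.41, 9.34 and 8.93 after sißCat-both, with 1 sißCat-both array level with sißCat-mut and the others lower, and was below it by -1.12 ± 0.36 (limma adjusted p = 0.047), a call lost under 12 of 23 alternatives. APCDD1, a membrane inhibitor of the pathway (0.76 ± 0.18), glutamine synthetase GLUL (0.48) and the ligase RNF43 (0.46) were above the sum and SOX9 below it (-0.53). Of Wnt ligands, receptors and signal transducers 2 of 22 were above and 2 below, with interactions between -0.63 and 0.41. These are 9.09% each, close to the 7.60% and 8.79% of all genes, and are not read as a result about the list. The calls of FZD2 (below) and PYGO2 (above) were lost under 9 and 14 alternatives.

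**Figure D5:**
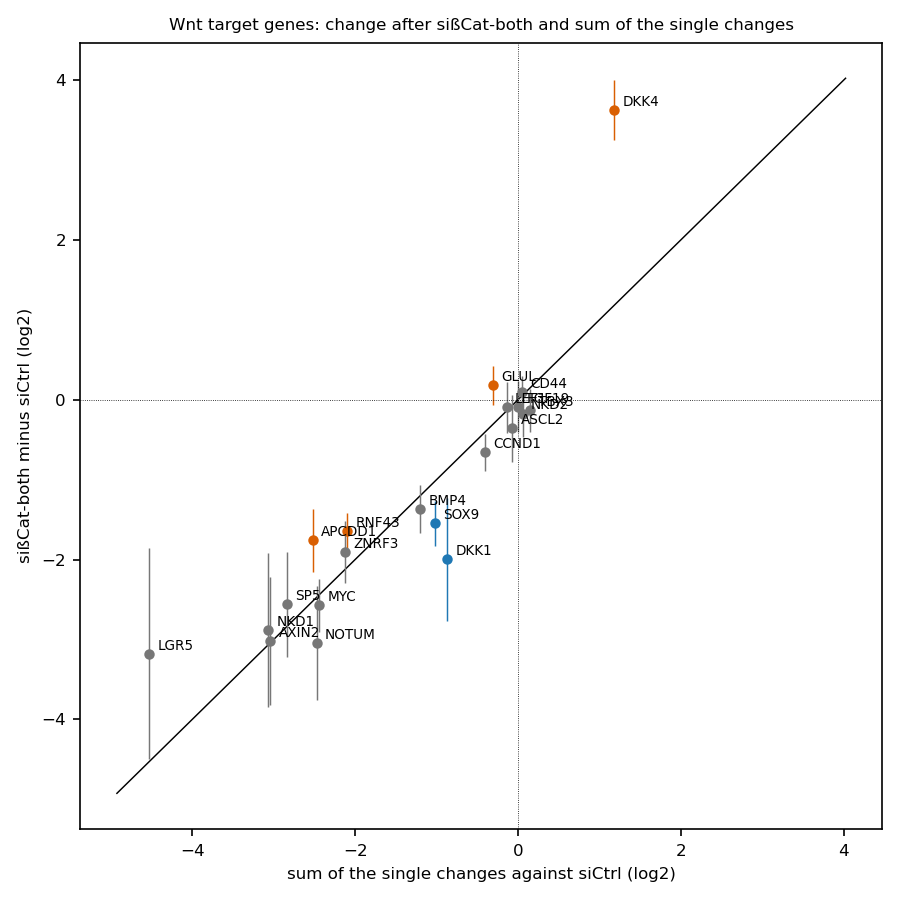
Change after sißCat-both (vertical, log2 against siCtrl) and the sum of the single changes (horizontal, log2) for the 21 measured Wnt target genes; bars are 95% intervals of the interaction, the line marks equality, and orange, blue and grey genes were above, below and not called. AXIN2 (joint change -3.02, sum -3.04) lies on the line and DKK4 (3.62 and 1.18) well above it.

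In 3 lists that truncated loss changed in most members, the shares called above or below the sum were close to or under those of all genes. Ribosome biogenesis genes fell in 27 of 27 members after sißCat-mut, and 0 were above the sum and 2 of 27 below (median -0.08). Cytosolic ribosomal protein genes, of which 29 of 34 fell after sißCat-mut, had 2 above and 1 below (median 0.02), and sterol synthesis genes 1 of 17 above and 1 below, after 16 of 17 had risen with sißCat-mut. In this order the shares were 0%, 5.88% and 5.88% above and 7.41%, 2.94% and 5.88% below, beside 7.60% and 8.79% of all genes. With lists of this size they are not read as a result about these families. Respiratory chain genes, of which sißCat-mut changed 2 of 15, had 1 above and 1 below.

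As examples near the sum among genes with effects of both forms, the receptor EGFR read 7.57, 7.65 and 7.82 in siCtrl, 8.03, 8.21 and 8.41 after sißCat-WT, 8.59, 8.76 and 8.77 after sißCat-mut and 9.09, 9.34 and 9.25 after sißCat-both. Each step from siCtrl to sißCat-both was upward with no overlap, and its single changes of 0.54 and 1.03 summed to 1.56 against a joint change of 1.55. Its interaction was -0.02 ± 0.15, with a 95% interval of -0.34 to 0.31. CROT, a peroxisomal carnitine transferase, had 1.73 against 1.79 (interval -0.19 to 0.30), the p53 target TP53INP1 1.84 against 1.70 (-0.49 to 0.20), and TEAD4, the partner of YAP, -1.75 against -1.59 (-0.14 to 0.45).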

How the data were processed

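Total RNA of HepG2 cells at 120 h was labelled with biotin, per the labels' protocols, and measured on 12 Affymetrix arrays, 3 for each of 4 groups taken from the sample titles. For 53617 probe sets the authors deposited log2 intensities; per the submitters' processing notes these come from RMA, run in Affymetrix Expression Console 1.1. RMA equalises the distributions of the arrays, so a shift shared by most genes is removed, and compresses differences near the floor. Library files and annotation build are not given in the sources. The number of arrays limits the precision.

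Names came from GEO's table for the platform, in which 16098 probe sets had 1 symbol, 0 several, and 37519 were unnamed here. Where a gene had several probe sets (779 genes) the one with the highest mean over the 12 arrays stood for it, giving 14884 genes, unfiltered. The β-catenin gene and some gene families are not analysed here. A single limma model (lmFit and eBayes, version 3.58.1, R 4.3.3) held the 4 group means over all arrays, with 8 residual degrees of freedom (median 13.3 with the prior). The interaction and its component contrasts were tested two-sided with Benjamini-Hochberg adjustment over all genes, at 0.05.

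The interaction, the 45 gene lists (40 with at least 3 measured members) and the naming rule were chosen with earlier results of these data known, so lists are described by counts and medians without a test. The rule named the 12 highest and 12 lowest called interactions, the 8 highest and 8 lowest with all group means above the 40th percentile, the largest with opposite effects of a loss in 2 backgrounds, up to 3 called members per list, and 4 examples near the sum, 121 genes in all; 6 more were added for their role or after their values were seen.

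On simulated data with 14884 genes the interaction test recovered 29.9% of 67 genes changed by 0.5, 92.5% of 67 changed by 1 and 100% of 66 changed by 2 (log2), with 9 false calls among 157. Far fewer genes were changed there than were called in the data (16.4%). The adjustment depends on that share, so the recovery in the data may differ. Alternatives were other normalizations, probe set rules, filters, priors, array weights, linear intensities, thresholds, the replicate number as a block, each array left out, and 2 arrays that read apart left out. Promoters and the microRNA come from RefSeq tables (GRCh38.p14), in which 10749 of 14884 genes had a promoter entry. Figures used matplotlib 3.10.9 in Python 3.11.15.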

Additional observations from a re-analysis of the deposited data

Results flagged for a closer look

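The interaction compares the effect of targeting 1 form of β-catenin with the other form left or also targeted. Because sißCat-both is a reagent of its own, a difference in reagent or silencing cannot be told apart from a dependence between the forms. limma called an interaction in 1131 genes above the sum and 1308 below it. Of these, 302 were called in opposite directions in the 2 contrasts of full-length loss and 208 in those of truncated loss. For full-length loss the widest reversals were GSTA2 (5.19), GSTA1 (4.38), AADAC (3.85), CES1 (3.67) and OTC (3.31) above the sum and AXL (-3.26), ESAM (-3.17) and PAEP (-2.65) below it, all as log2 interactions. For truncated loss AXL and PAEP were joined by MIXL1 (2.70) and CD109 (-2.60).

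A signal outside the named genes was also present: 1489 of the 37519 probe sets without a name (3.97%) were called in the interaction, 764 above the sum and 725 below it. Groups of 3 arrays are too small for single arrays to be singled out by the rule used for larger groups.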

How the results depend on the processing

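Beside 1131 genes above the sum, 1308 below it, 302 opposite for full-length loss, 208 opposite for truncated loss and 5000 after sißCat-both against siCtrl, an adjusted p under 0.01 gave 598, 690, 123 and 81 for the first 4, and a minimum size of 1 gave 164, 194, 134, 79 and 584. A fit of all probe sets, with p-values adjusted over more features, left 169 and 134 opposite genes. Leaving out 1 array gave 870 to 1130 above, 1027 to 1459 below, 194 to 317 and 146 to 225 opposite, and 4364 to 4998 against siCtrl. The 302 became 198 without the first or second siCtrl array and 194 without the second sißCat-WT array or 201 without the third. All other alternatives kept these counts within 1.5 times. The share above the sum among called genes was 46.4%, and 52.3% after median centring.

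Of 117 called genes named by the rule, 98 kept their call under every alternative fit that gave a value. The other 19 lost it under at least 1. They were APOC3, ASNS, BAAT, C2, DKK1, EPHA1, FDPS, FZD2, HK2, JUP, LEAP2, LYVE1, PLG, PNO1, PYGO2, RPL12, RRM2, SREBF1 and TYROBP. These fits kept the reported threshold, so the stricter threshold and the minimum size were not counted here. APCDD1 (limma adjusted p = 0.0118) and FN1 (0.0112) kept their call in the fits but miss the stricter threshold. VCL (-0.77) likewise falls short of the minimum size. PLG turned to -0.32 on linear intensities (limma adjusted p = 0.277, with 0.0113 to 0.277 over the alternatives). Genes filtered as dim gave no value there.

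Deviations of same-numbered arrays correlated at -0.047 to 0.189, above 0.1 in 10 of 18 cases, and in 1 of 6 group pairs in all 3 (sißCat-WT and sißCat-both), so the numbers were not taken to pair the 4 groups. With the replicate number as a block 1197 genes were above the sum and 1410 below, and 2342 of the 2439 calls were shared. The precision of 3 arrays a group, the array floor and the unknown efficiency of each RNA limit the results. Simulated interactions of 0.5 were mostly missed, in simulated data with far fewer changed genes than were called here.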

Other observations

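Among hepatocyte and endoderm transcription factors 3 of 15 measured members were above the sum (MIXL1, KLF15 and GATA6, the last by 0.46) and 1 below it (the pioneer factor FOXA1, -0.61 ± 0.12). FOXA1 had mean levels of 7.87 in siCtrl, 8.09 after sißCat-WT, 8.26 after sißCat-mut and 7.88 after sißCat-both, so it read higher after either single RNA and close to siCtrl after the joint one. The related FOXA2 and FOXA3 were not called (-0.03 and -0.24), nor were ONECUT1 (0.25) and PROX1 (-0.07).

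Of the acute phase and innate defence genes 3 of 13 were above the sum and 1 below, with a median of 0.06. LEAP2, a liver peptide with antimicrobial activity, was above it by 1.29 ± 0.21, a call lost on linear intensities, and the interleukin-6 receptor IL6R below it by -0.82. The classical acute phase gene SAA1 (0.16), SOCS3 (-0.37) and LCN2 (0.15) were not called.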
